A study of Rattus norvegicus with 8 samples.

Results

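The genes described here encode the voltage-gated sodium and potassium channels of the rat, with their close relatives and subunits, as measured in sciatic nerve tissue. Genes were taken by symbol (Scn followed by a number and a or b for sodium channels, Kcn followed by a family letter and a number for potassium channels) and kept where the normalized read count was at least 10 in at least 2 of 8 libraries. This left 73 genes of the 104 whose symbol matched and of 32545 genes in all. Only some of them are voltage-gated in the strict sense. The sodium channel alpha subunits (7 genes) form voltage-gated pores, apart from the atypical Scn7a. So do the Shaker channels and their closest relatives (10), the Kv7 channels (3) and the EAG, ERG and ELK channels (5). The symbol rule also took sodium channel beta subunits (4), modifier subunits that give no current alone (7), auxiliary subunits (10), calcium- and sodium-activated channels and their subunits (8), inward rectifiers (11) and two-pore domain channels (8), of which the inward rectifiers, two-pore channels and several activated channels have no voltage sensor of the classical kind.

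The libraries came from outbred female Sprague Dawley rats of 3 to 6 months. Donor sciatic nerve segments were sewn as peripheral nerve allografts (PNAs) into hosts that were neither tissue matched nor immunosuppressed. PEG-fused PNAs (n = 3 animals) were treated at the cut ends with polyethylene glycol (PEG), a membrane fusogen that joins severed axons, and negative control (NC) PNAs (n = 3 animals) had the same surgery, hypotonic saline wash, methylene blue and sutures without PEG. Both were excised 14 days post-operatively (PO), and unoperated (Unop) sciatic nerves (n = 2 animals) had no surgery, so that a comparison with Unop nerves holds the effects of transection, transplantation and the washes together. Each graft held donor cells and invading host cells, which the libraries do not separate.

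Voltage-gated sodium channels open to start the action potential and are packed at the nodes of Ranvier, the gaps in the myelin of an axon. Shaker-type potassium channels lie beside the node under the myelin, and two-pore domain channels and inward rectifiers set the resting potential of axons, Schwann cells and immune cells. A nerve segment holds axons without their neuronal cell bodies, so most channel mRNA in it belongs to Schwann cells, fibroblasts, vessels and invading cells, with a smaller part carried in axons. In bulk tissue, fewer cells of a type and less RNA per cell cannot be told apart.

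Between 32472925 and 39959620 reads fell on genes per library. Values are normalized read counts, that is counts divided by a size factor per library, and are given for the PEG (PEG-fused PNA), NC and Unop groups in the order of their replicates. The markers of myelinating Schwann cells summed to between 2835507 and 3407122 in Unop nerves, 48204 and 57758 in PEG-fused PNAs and 18483 and 77707 in NC PNAs, and none of these 10 markers was at 0 in any library. Markers of repair or immature Schwann cells summed to between 30208 and 38307 in PEG-fused PNAs, 14913 and 17618 in NC PNAs and 9373 and 9484 in Unop nerves. NC 1 and NC 3 stood apart from the other libraries in skeletal muscle fibre genes, which summed to 904456 and 326819 there, against 15088 in NC 2, between 3535 and 20702 in PEG-fused PNAs and between 8668 and 50261 in Unop nerves. Several channel genes of muscle followed these sums, and they are described together with the values of each library.

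Against Unop nerves, more of the genes kept were called lower than higher. Of the 73 genes, 25 (34.2%) were significantly lower and 16 (21.9%) higher in PEG-fused PNAs, where 28.6% and 29.1% of all 16478 genes tested were lower and higher. In NC PNAs, 30 (41.1%) were lower and 21 (28.8%) higher, where 32.3% and 32.2% of all genes tested were. Between PEG-fused and NC PNAs, 13 (17.8%) were higher and 11 (15.1%) lower, near the 15.0% and 13.9% of all genes tested. A gene was called when padj, the limma p-value adjusted by the Benjamini-Hochberg method over all 16478 genes, was under 0.05. The log2 fold changes are given with their SE on the scale of log2(normalized read count + 1), and where 2 of them follow each other without a name, the first is that of PEG-fused PNAs and the second that of NC PNAs, each against Unop nerves. A log2 fold change beyond 1 was then asked for as well. Against Unop nerves, 15 of the 73 genes were higher and 21 lower in PEG-fused PNAs, where 16.7% and 15.6% of all genes tested were. In NC PNAs 19 of the 73 were higher and 27 lower, where 19.6% and 19.0% of all genes tested were. Between the allografts 10 of the 73 were higher and 11 lower with PEG, where 4.41% and 7.14% of all genes tested were.

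The median log2 fold change of the 73 genes was -0.57 in PEG-fused PNAs and -0.01 in NC PNAs against Unop nerves, with 0.01 and 0.02 over all genes tested, and 0.14 in PEG-fused against NC PNAs, with 0.00 over all.

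The count limit favoured a difference in genes that passed it through only some groups, so the counts above and the p-values of these genes are a description of the genes kept. A count of 10 in at least 1 library was reached by 58 genes in all 3 groups. Only PEG-fused and NC PNAs reached it for 7 genes (Kcnh1, Kcnh4, Kcnh6, Kcnab3, Kcng1, Kcns1 and Kcnk4). Only NC PNAs and Unop nerves did so for 4 (Kcna1, Kcna7, Kcnf1 and Kcnk3), and Kcna1, Kcnf1 and Kcnk3 had 1 such NC library each. Only Unop nerves did for 2 (Kcna5 and Kcnk16), only PEG-fused PNAs and Unop nerves for 1 (Kcnip1) and only PEG-fused PNAs for 1 (Kcnj16). Just inside the limit, the second-highest library value was 11.8 for Kcns1, 12.5 for Kcnk4 and 15.9 for Kcnj16, and just outside it 9.38 for Kcnk12, 8.34 for Kcnc2 and 7.53 for Kcng3.

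**Figure D1:**
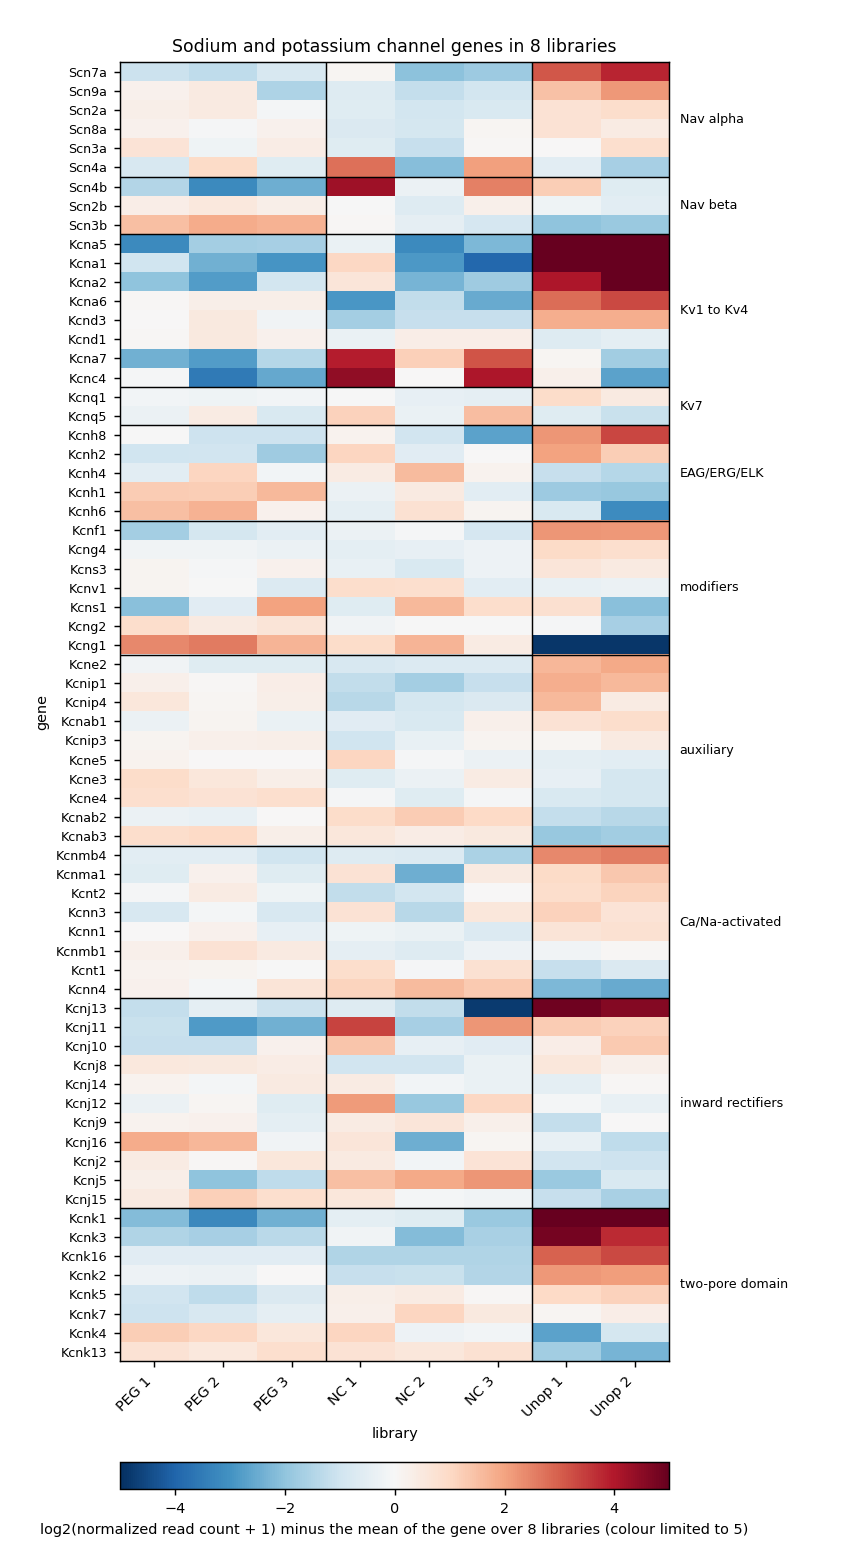
Each row is 1 of 68 of the 73 channel genes, grouped by family, and each column 1 library. Colour gives log2(normalized read count + 1) minus the mean of the gene over the 8 libraries, limited to 5 in either direction. Kcna1, Kcna2, Kcna5, Kcnj13, Kcnk1 and Kcnk3 were high in both Unop nerves alone, Kcng1 was high in both allograft groups, and Kcnc4, Scn4b and Kcnj11 were high in NC 1 and NC 3.

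Every library of PEG-fused PNAs lay below both Unop nerves for 34 genes (46.6%, against 37.2% of all genes tested) and above them for 21 (28.8%, against 37.3%). For NC PNAs the counts were 32 below (43.8%, against 37.4%) and 22 above (30.1%, against 37.2%). The 2 comparisons share the Unop nerves. No comparison called 17 genes, among them Kcne5, Kcnip3, Kcnj10, Kcnj11, Kcnj12, Kcnj14, Kcnj16, Kcnma1, Kcnn3, Kcns1, Kcnv1, Scn2b, Scn3a and Scn4a.

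**Figure D2:**
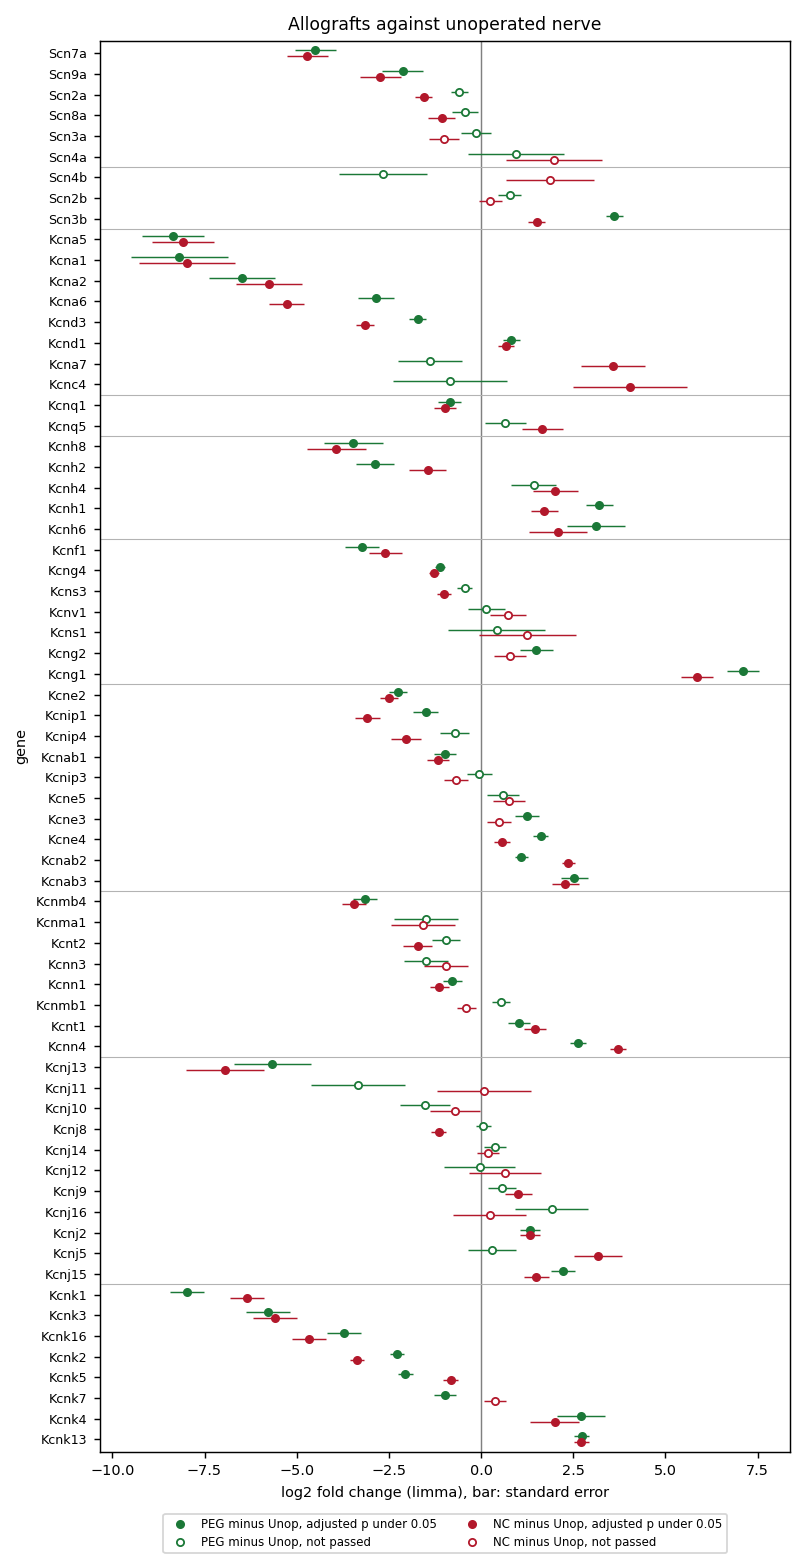
Points are the log2 fold changes of 68 of the 73 genes in PEG-fused PNAs (green) and NC PNAs (red) against Unop nerves, with the SE as bars, and filled points passed padj under 0.05. Kcna5 and Kcna1 fell furthest in both groups, and Kcng1 rose furthest in both.

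Promoters are shown for genes that moved far and the same way in both allograft groups. RefSeq gave 56 windows on GRCr8, each of 300 bases around a gene's start, for 52 of the 73 genes. Of the genes called in the same direction in both and with a single window, the 4 with the lowest and the 1 with the highest mean log2 fold change are printed. Kcna1, Kcnk1 and Kcnk3, which fell, and Kcng1 and Kcnn4, which rose, were not matched to a window. Capitals mark the E-box motif (CANNTG, which reads the same on both strands), the site of many helix-loop-helix factors. Kcna5 lies at chr4:161043760-161044059 on the minus strand. Kcnj13 lies at chr9:95518937-95519236 on the minus strand. Kcna2 lies at chr2:197393280-197393579 on the plus strand. Scn7a lies at chr3:71846235-71846534 on the minus strand. Kcnk13 lies at chr6:124971559-124971858 on the plus strand. Each is written 5′ to 3′ along its gene.
Kcna5: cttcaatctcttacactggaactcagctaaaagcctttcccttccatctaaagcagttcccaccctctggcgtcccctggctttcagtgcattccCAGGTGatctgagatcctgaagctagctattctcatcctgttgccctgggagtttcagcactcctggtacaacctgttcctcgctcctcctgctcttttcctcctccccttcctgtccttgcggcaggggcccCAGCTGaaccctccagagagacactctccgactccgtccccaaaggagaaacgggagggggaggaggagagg
Kcnj13: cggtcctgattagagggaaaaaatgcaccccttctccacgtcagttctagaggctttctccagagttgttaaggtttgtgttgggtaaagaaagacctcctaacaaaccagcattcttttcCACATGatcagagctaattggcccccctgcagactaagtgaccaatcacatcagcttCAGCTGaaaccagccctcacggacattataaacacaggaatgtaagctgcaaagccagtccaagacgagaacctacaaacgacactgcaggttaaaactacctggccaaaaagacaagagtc
Kcna2: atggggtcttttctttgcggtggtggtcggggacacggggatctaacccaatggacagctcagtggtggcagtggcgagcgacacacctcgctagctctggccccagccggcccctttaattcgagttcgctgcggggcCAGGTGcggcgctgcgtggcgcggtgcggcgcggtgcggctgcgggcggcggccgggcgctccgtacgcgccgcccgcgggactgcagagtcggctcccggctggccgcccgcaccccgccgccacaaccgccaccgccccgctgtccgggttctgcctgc
Scn7a: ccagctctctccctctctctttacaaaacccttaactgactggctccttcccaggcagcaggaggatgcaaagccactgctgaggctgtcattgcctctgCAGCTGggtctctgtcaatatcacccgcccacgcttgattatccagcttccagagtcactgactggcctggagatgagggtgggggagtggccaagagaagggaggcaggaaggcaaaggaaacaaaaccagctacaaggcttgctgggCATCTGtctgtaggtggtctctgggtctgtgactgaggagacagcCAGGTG
Kcnk13: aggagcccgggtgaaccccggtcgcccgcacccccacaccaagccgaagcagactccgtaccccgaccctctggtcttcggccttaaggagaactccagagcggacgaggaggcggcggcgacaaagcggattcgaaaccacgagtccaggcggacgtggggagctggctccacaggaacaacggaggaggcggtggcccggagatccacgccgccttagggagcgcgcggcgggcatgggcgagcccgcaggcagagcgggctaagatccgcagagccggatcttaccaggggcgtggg
Scn7a held 3 E-boxes, Kcna5 and Kcnj13 held 2 each, Kcna2 held 1 and Kcnk13 held none. An E-box stood in 72.2% of the windows of genes lower in both allograft groups and in 72.7% of those of genes higher in both. Of the windows of all 52 genes 69.6% held one, as did 72.1% of all 33469 windows. The AP-1 motif TGANTCA, searched on both strands and overlapping no E-box here, was in 2 windows of the 52 genes (3.57%) and in none of genes lower or higher in both, where 7.33% of all windows held it. A match is a description of these letters only.

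Among the alpha subunits, which form the sodium pore, Scn7a was the most altered. Scn7a encodes an atypical channel that responds to extracellular sodium and is known in Schwann cells. Its normalized read counts were 1413, 1256 and 1747 in PEG, 3179, 721 and 860.5 in NC and 25575 and 42287 in Unop. Both Unop nerves lay above every allograft, and the log2 fold change was -4.49 ± 0.56, padj 0.000232 in PEG-fused and -4.71 ± 0.56, padj 0.00013 in NC PNAs. The 2 allograft groups overlapped (0.22 ± 0.50, padj 0.781), with NC 1 above the PEG-fused PNAs and NC 2 and NC 3 below them. Scn7a made up most of the summed alpha subunit counts, which were (mean ± SD) 34837 ± 12029 in Unop (n = 2), 1993 ± 151 in PEG (n = 3) and 2214 ± 1643 in NC (n = 3). The markers of myelinating Schwann cells fell beside it, 9 of 10 in each allograft group against Unop nerves, with none of them at 0, and their part in the fall of Scn7a was not tested. Scn7a passed the test in PEG-fused against NC PNAs without NC 1 (0.89, padj 0.0253).

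Scn9a, the sodium channel of pain-sensing and sympathetic axons, had counts of 149, 177 and 43.2 in PEG, 83.1, 55.9 and 67.5 in NC and 357 and 588 in Unop. It fell in PEG-fused PNAs (-2.12 ± 0.56, padj 0.0108) and in NC PNAs (-2.74 ± 0.56, padj 0.00262), and the 2 allograft groups overlapped because PEG 3 lay below all 3 NC PNAs. Scn2a, a channel of immature and unmyelinated axons, was at 112, 125 and 84.4 in PEG, 59.9, 48.4 and 54.0 in NC and 152 and 168 in Unop. The 3 groups did not overlap, and Scn2a was significantly higher in PEG-fused than in NC PNAs (0.96 ± 0.21, padj 0.0108). Against Unop nerves it was lower in NC PNAs (-1.55 ± 0.23, padj 0.000466), and PEG-fused PNAs gave -0.59 ± 0.23, padj 0.0564. Scn8a, the main channel of mature nodes, was low at 28.7, 23.4 and 28.1 in PEG, 14.3, 12.9 and 26.0 in NC and 40.8 and 32.5 in Unop. The fall in NC PNAs passed (-1.06 ± 0.36, padj 0.0304). Scn3a, which embryonic neurons use, was called in no comparison. It was at 222, 119 and 178 in PEG, 88.5, 61.3 and 141 in NC and 141 and 243 in Unop. Scn9a did not pass the test in PEG-fused PNAs against Unop nerves without Unop 2 (padj 0.0888). Scn9a passed the test in PEG-fused against NC PNAs without PEG 3 (1.24, padj 0.0233). Scn2a passed the test in PEG-fused PNAs against Unop nerves without PEG 2 (-0.71, padj 0.0481). Scn8a did not pass the test in NC PNAs against Unop nerves without any one of NC 1, NC 2, Unop 1 and Unop 2 (padj 0.0576 to 0.136). Scn3a passed the test in NC PNAs against Unop nerves without NC 3 (-1.31, padj 0.0218). Transcripts of axons, on a list of 12 genes, moved beside these channels. Their sums were between 11611 and 12109 in Unop nerves, 4470 and 5361 in PEG-fused PNAs and 2291 and 3182 in NC PNAs. Of the 10 tested, 7 fell and 1 rose in each allograft group against Unop nerves and 2 were higher in PEG-fused than in NC PNAs. Chat, which marks motor axons, had at most 1 read per library, and the part of the list was not tested.

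The beta subunits are single-span partners that place and tune the sodium pore. Scn3b stood out, with counts of 2184, 2823 and 2593 in PEG, 802, 576 and 429 in NC and 193.2 and 216 in Unop. No library of 1 group reached another, in the order PEG-fused PNAs, NC PNAs, Unop nerves. Scn3b rose by 3.62 ± 0.24, padj 7.84e-06 in PEG-fused and 1.51 ± 0.24, padj 0.000652 in NC PNAs against Unop nerves. Between the allografts it was higher in PEG-fused PNAs (2.11 ± 0.21, padj 0.000664). The sum of the repair Schwann cell markers was highest in PEG-fused PNAs too. Of its 10 genes, 5 were higher than in NC PNAs, and 6 were higher and 1 lower than in Unop nerves, and their part was not tested. Scn2b was at 56.5, 64.5 and 54.4 in PEG, 43.8, 28.0 and 52.1 in NC and 37.6 and 30.0 in Unop and was not called (0.78 ± 0.31, padj 0.0605 in PEG-fused PNAs against Unop nerves). Scn2b passed the test in PEG-fused PNAs against Unop nerves without NC 2 (0.78, padj 0.0297).

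Shaker channels were among the genes that fell furthest. Kcna1 and Kcna2 encode the juxtaparanodal potassium channels that damp excitation under the myelin. Kcna1 was at 6.49, 1.87 and 0.938 in PEG, 30.4, 1.08 and 0 in NC and 776 and 1299.5 in Unop. The log2 fold change was -8.18 ± 1.30 in PEG-fused and -7.96 ± 1.30 in NC PNAs. Both are given with no test, since among the allografts only NC 1 reached 10. Kcna2 was at 5.56, 2.80 and 13.1 in PEG, 39.3, 4.30 and 6.75 in NC and 433 and 933 in Unop, which gave -6.49 ± 0.89, padj 0.00039 and -5.75 ± 0.89, padj 0.00059. Kcna5, which Schwann cells are known to carry, was at 0, 1.87 and 1.88 in PEG, 6.26, 0 and 0.965 in NC and 644 and 674 in Unop, or at most 7 reads in an allograft. It reached the count limit only in Unop nerves, so its log2 fold changes of -8.35 ± 0.83 and -8.09 ± 0.83 are given with no test. For all 3 genes the Unop nerves lay far above every allograft, NC 1 was the highest allograft, and PEG-fused and NC PNAs overlapped.

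Kcna6 differed from its neighbours among the Shaker genes. It was at 27.8, 32.7 and 32.8 in PEG, 2.68, 10.8 and 3.86 in NC and 193.2 and 271 in Unop, so that the groups were apart, with PEG-fused PNAs between. It was lower than in Unop nerves in both (-2.84 ± 0.48, padj 0.00121 in PEG-fused and -5.27 ± 0.48, padj 2.79e-05 in NC PNAs) and significantly higher in PEG-fused than in NC PNAs (2.43 ± 0.43, padj 0.00506). The Shal channel Kcnd3, which carries transient A-type current, had the same order, with 564, 781 and 484 in PEG, 169, 252 and 252 in NC and 1961 and 1976 in Unop. It was higher in PEG-fused than in NC PNAs (1.43 ± 0.21, padj 0.00239) and lower in both than in Unop nerves (-1.72 ± 0.24, padj 0.000393 and -3.15 ± 0.24, padj 9.6e-06). Kcnd1, the other Shal channel kept, rose modestly in both, at 349, 467 and 384 in PEG, 265, 423 and 417 in NC and 215 and 235 in Unop. The rises were 0.82 ± 0.23, padj 0.0143 and 0.68 ± 0.23, padj 0.0285. Kcnd1 did not pass the test in PEG-fused PNAs against Unop nerves without Unop 1 (padj 0.0795) and in NC PNAs against Unop nerves without any one of NC 2, NC 3, Unop 1 and Unop 2 (padj 0.0744 to 0.126).

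**Figure D3:**
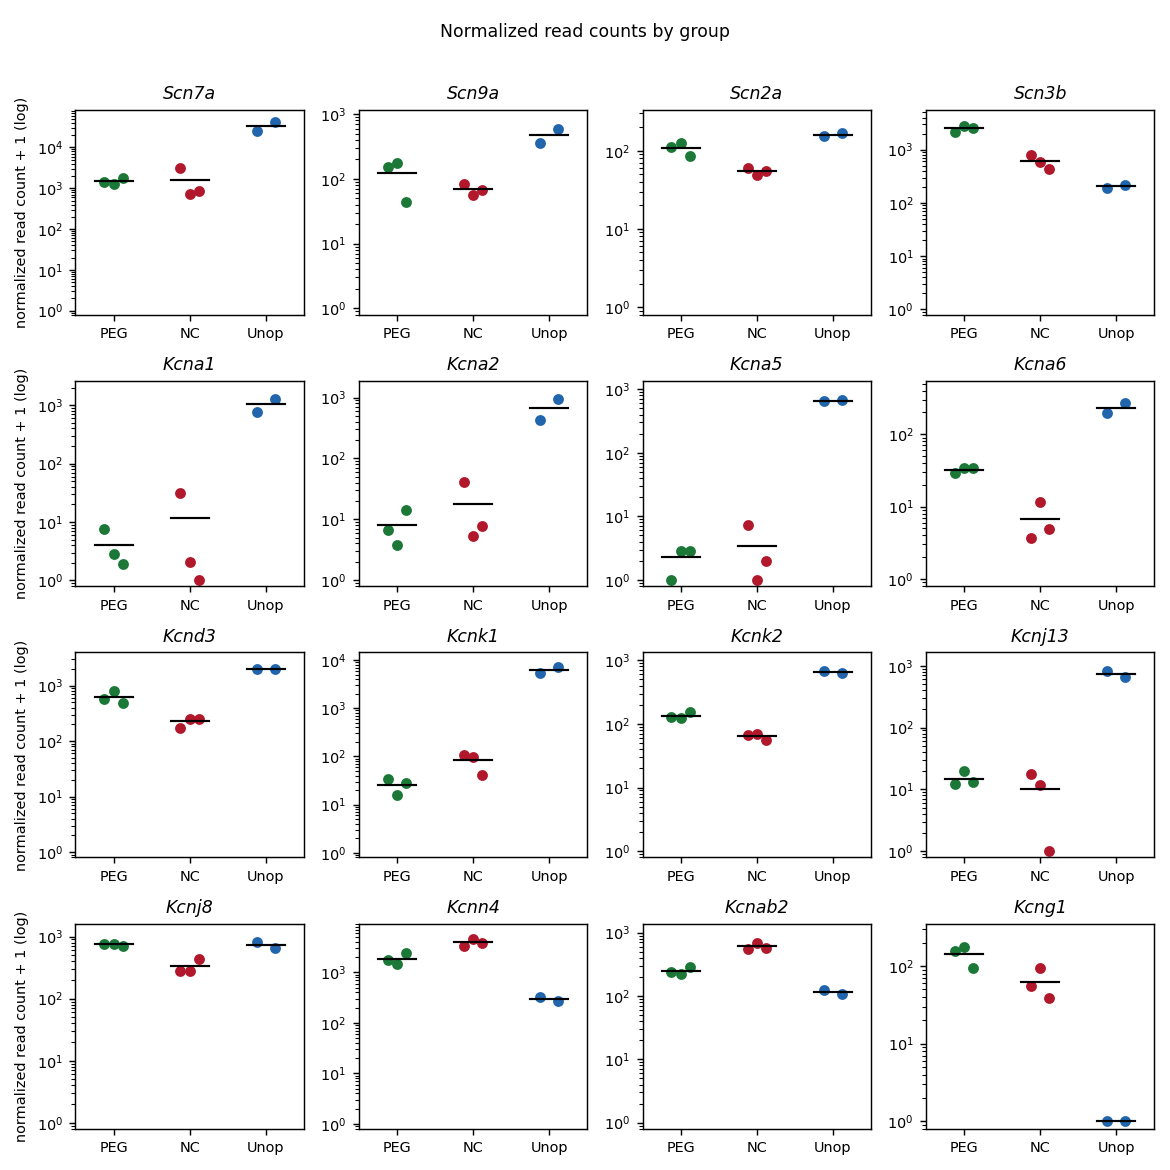
Points are the libraries and bars the group means of normalized read count + 1, on a log axis, for 16 channel genes. Kcna1, Kcna2, Kcna5, Kcnk1 and Kcnj13 fell by over a log unit in both allograft groups, Scn2a, Kcna6, Kcnd3 and Kcnk2 were lower in NC than in PEG-fused PNAs, Kcnj8 was lower in NC PNAs, and Scn3b, Kcnn4, Kcnab2 and Kcng1 were lowest in Unop nerves.

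The EAG, ERG and ELK channels split by member. Kcnh1 (EAG), a channel of neurons and dividing cells, was at 52.8, 50.5 and 66.6 in PEG, 17.0, 29.0 and 14.5 in NC and 5.37 and 5.003 in Unop. The 3 groups did not overlap, and the log2 fold change between the allografts was 1.496 ± 0.33, padj 0.0113. Against Unop nerves Kcnh1 rose by 3.21 ± 0.36 in PEG-fused and 1.71 ± 0.36 in NC PNAs. These rises are given with no test, since no Unop nerve reached 10. Kcnh2 (ERG), known for repolarising the heart, went the other way, at 20.4, 20.6 and 11.3 in PEG, 87.6, 28.0 and 41.5 in NC and 169.6 and 98.8 in Unop. It fell in both (-2.87 ± 0.51, padj 0.00151 and -1.45 ± 0.51, padj 0.0342) and was lower in PEG-fused than in NC PNAs (-1.42 ± 0.46, padj 0.0478). Kcnh8 (ELK) was at 24.1, 11.2 and 11.3 in PEG, 27.7, 11.8 and 2.89 in NC and 115 and 251 in Unop and fell in both (-3.46 ± 0.79, padj 0.00567 and -3.92 ± 0.79, padj 0.00254). Kcnh6 and Kcnh4 had low counts. Kcnh6 was at 24.1, 29.0 and 9.38 in PEG, 5.36, 13.99 and 8.68 in NC and 4.29 and 0 in Unop. Its log2 fold changes were 3.11 ± 0.79 and 2.08 ± 0.79. Kcnh4 was at 5.56, 18.7 and 7.50 in PEG, 11.6, 26.9 and 9.65 in NC and 3.22 and 2.501 in Unop. Its log2 fold change in NC PNAs against Unop nerves was 2.01 ± 0.61. Both genes reached 10 only in allografts, so these changes are given with no test. Kcnh2 did not pass the test in PEG-fused against NC PNAs without any one of NC 1, NC 3, PEG 1, PEG 2, PEG 3, Unop 1 and Unop 2 (padj 0.0594 to 0.144) and in NC PNAs against Unop nerves without any one of NC 2, NC 3 and Unop 1 (padj 0.0821 to 0.207). Kcnh8 did not pass the test in PEG-fused PNAs against Unop nerves without Unop 2 (padj 0.056). The calls of Kcnh6 and Kcnh4 against Unop nerves were also lost in some fits without 1 library.

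The Kv7 family holds the channels of the slow M-type brake on firing. Its member Kcnq1, a channel of heart and epithelium, was at 19.5, 18.7 and 19.7 in PEG, 21.4, 16.1 and 15.4 in NC and 41.9 and 30.0 in Unop and fell in both allograft groups (-0.85 ± 0.31, padj 0.0428 and -0.98 ± 0.31, padj 0.0216). The neuronal member Kcnq3 did not reach the count limit, with at most 7.48 in any library. Kcnq1 did not pass the test in PEG-fused PNAs against Unop nerves without any one of NC 2, NC 3, PEG 1, PEG 2, PEG 3 and Unop 1 (padj 0.0511 to 0.198) and in NC PNAs against Unop nerves without NC 3 (padj 0.0587) or without Unop 1 (padj 0.115).

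Modifier subunits join pore subunits of other families and change their gating. Kcng1 had no read in either Unop nerve and was at 154, 176 and 94.7 in PEG-fused and 54.5, 92.5 and 37.6 in NC PNAs. With a floor of 3 counts per library in Unop nerves, the rise was at least 40.6-fold in PEG-fused and at least 17.7-fold in NC PNAs. PEG-fused PNAs were also above NC PNAs (1.24 ± 0.39, padj 0.045), although PEG 3 and NC 2 were close at 94.7 and 92.5. Kcng2 rose in PEG-fused PNAs (1.503 ± 0.44, padj 0.0182), at 54.7, 40.2 and 46.0 in PEG, 25.9, 29.0 and 28.9 in NC and 27.9 and 8.76 in Unop. Kcnf1 was lower in both (-3.22 ± 0.45 and -2.59 ± 0.45), at 2.78, 5.61 and 7.50 in PEG, 8.94, 10.8 and 5.79 in NC and 55.8 and 53.8 in Unop. These changes are given with no test, since among the allografts only NC 2 reached the count limit. Kcng4 fell evenly, at 235, 233 and 217 in PEG, 189, 202 and 221 in NC and 515 and 480.3 in Unop (-1.12 ± 0.14, padj 0.000202 and -1.29 ± 0.14, padj 6.79e-05). Kcns3 was at 188, 162 and 194 in PEG, 130.5, 100.05 and 142 in NC and 259.7 and 234 in Unop. It was lower in NC PNAs than in Unop nerves (-0.999 ± 0.20, padj 0.00232) and higher in PEG-fused than in NC PNAs (0.55 ± 0.18, padj 0.0477). Kcns1 and Kcnv1, below 33 in every library, were not called. Kcng1 did not pass the test in PEG-fused against NC PNAs without any one of NC 1, NC 3, PEG 1, PEG 2, Unop 1 and Unop 2 (padj 0.057 to 0.155). Kcng2 did not pass the test in PEG-fused PNAs against Unop nerves without PEG 1 (padj 0.0566) or without Unop 2 (padj 0.0968). Kcng2 passed the test in NC PNAs against Unop nerves without Unop 1 (1.57, padj 0.00616). Kcns3 did not pass the test in PEG-fused against NC PNAs without any one of NC 1, NC 2, PEG 1, PEG 2, PEG 3, Unop 1 and Unop 2 (padj 0.0581 to 0.142). Kcnv1 passed the test in NC PNAs against Unop nerves without NC 3 (1.19, padj 0.0345).

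Auxiliary subunits of the voltage-gated potassium channels moved in both directions while their summed count was (mean ± SD) 1111 ± 33.1 in PEG (n = 3), 1166 ± 121 in NC (n = 3) and 1055 ± 28.1 in Unop (n = 2). Kcnab2, a cytoplasmic beta subunit of Shaker channels, was at 236, 222 and 291 in PEG, 547, 692 and 576 in NC and 124 and 107.6 in Unop. Its groups did not overlap, and it was highest in NC PNAs. It rose in both (1.09 ± 0.18, padj 0.000934 and 2.37 ± 0.18, padj 9.27e-06) and was lower in PEG-fused than in NC PNAs (-1.28 ± 0.16, padj 0.00131). Kcnab3 rose alike in both, at 20.4, 22.4 and 13.1 in PEG, 16.1, 13.99 and 15.4 in NC and 2.15 and 2.501 in Unop (2.53 ± 0.37 and 2.28 ± 0.37). It reached the count limit only in allografts, so these rises are given with no test. Kcnab1 fell in both, at 174, 232 and 168 in PEG, 142, 126 and 251 in NC and 356 and 390.2 in Unop (-0.97 ± 0.30, padj 0.0209 and -1.17 ± 0.30, padj 0.00799). The 3 beta subunits of 1 channel type thus differed in direction or order.

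Among the KChIP proteins, calcium-binding partners of Shal channels, Kcnip1 and Kcnip4 were lowest in NC PNAs. Kcnip1 was at 19.5, 16.8 and 20.6 in PEG, 6.26, 4.30 and 6.75 in NC and 60.1 and 51.3 in Unop. It was higher in PEG-fused than in NC PNAs (1.58 ± 0.29, padj 0.00594) and lower in both than in Unop nerves (-1.51 ± 0.33, padj 0.00437 and -3.08 ± 0.33, padj 6.53e-05). Kcnip4 was at 55.6, 39.3 and 45.03 in PEG, 13.4, 19.4 and 22.2 in NC and 117 and 50.03 in Unop. It was higher in PEG-fused than in NC PNAs (1.32 ± 0.36, padj 0.0285) and lower in NC PNAs than in Unop nerves (-2.03 ± 0.41, padj 0.00238). Both followed the order of Kcnd3, the Shal pore, although Kcnip4 in PEG-fused PNAs overlapped the Unop nerves. Kcnip3 was at 65.8, 71.1 and 73.2 in PEG, 29.5, 46.3 and 65.6 in NC and 63.3 and 82.5 in Unop and was not called.

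The Kcne genes encode small single-span partners of several potassium channels. Kcne4 was at 276, 256 and 272 in PEG, 146, 100.05 and 146 in NC and 89.1 and 83.8 in Unop. It was higher in PEG-fused than in NC PNAs (1.05 ± 0.18, padj 0.00472) and rose in both against Unop nerves (1.62 ± 0.21, padj 0.000246 and 0.57 ± 0.21, padj 0.0386). Kcne3 rose in PEG-fused PNAs (1.24 ± 0.33, padj 0.0115), at 235, 185 and 153 in PEG, 80.4, 102 and 164 in NC and 92.3 and 67.5 in Unop. Kcne2 fell in both, at 42.6, 31.8 and 31.9 in PEG, 27.7, 30.1 and 29.9 in NC and 157 and 186.4 in Unop (-2.25 ± 0.25, padj 0.000108 and -2.51 ± 0.25, padj 4.11e-05). Kcne5 stayed between 13.8 and 43.8 and was not called. Kcnab1 did not pass the test in PEG-fused PNAs against Unop nerves without any one of PEG 1, PEG 3, Unop 1 and Unop 2 (padj 0.0591 to 0.102) and in NC PNAs against Unop nerves without Unop 2 (padj 0.0523). Kcnip4 did not pass the test in PEG-fused against NC PNAs without any one of NC 1, NC 2, PEG 1, PEG 2 and PEG 3 (padj 0.0516 to 0.0899). Kcnip4 passed the test in PEG-fused PNAs against Unop nerves without Unop 2 (-1.32, padj 0.0279). Kcnip3 passed the test in NC PNAs against Unop nerves without NC 3 (-0.95, padj 0.0307). Kcne4 did not pass the test in NC PNAs against Unop nerves without any one of NC 1, NC 3, PEG 1, PEG 2, PEG 3, Unop 1 and Unop 2 (padj 0.0585 to 0.128). Kcne3 did not pass the test in PEG-fused PNAs against Unop nerves without Unop 2 (padj 0.085). Kcne3 passed the test in PEG-fused against NC PNAs without NC 3 (1.05, padj 0.0306).

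Among the calcium- and sodium-activated channels, Kcnn4 rose most. It encodes the intermediate-conductance calcium-activated channel of T cells, macrophages and red cells, and its counts were 1769, 1462 and 2401 in PEG, 3354, 4586 and 3842 in NC and 326 and 269 in Unop. Every NC PNA lay above every PEG-fused PNA and these above both Unop nerves. Kcnn4 rose in both (2.63 ± 0.21, padj 2.22e-05 and 3.71 ± 0.21, padj 2.7e-06) and was lower in PEG-fused than in NC PNAs (-1.08 ± 0.19, padj 0.00501). The markers of T cells had the same order, with sums between 26439 and 49513 in NC PNAs, 2827 and 7340 in PEG-fused PNAs and 251 and 480 in Unop nerves. All 11 of them were lower in PEG-fused than in NC PNAs. Macrophage markers summed to between 634711 and 857805 in NC PNAs, 286473 and 372442 in PEG-fused PNAs and 37073 and 59987 in Unop nerves. Of these 12 markers, 10 were lower in PEG-fused than in NC PNAs. No marker of either list was at 0 in every library, and their part in the level of Kcnn4 was not tested.

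Kcnmb4, a beta subunit of the large-conductance channel in neurons, was at 63.0, 63.6 and 46.0 in PEG, 58.1, 57.0 and 29.9 in NC and 487 and 540.3 in Unop. It fell in both (-3.15 ± 0.32, padj 7.25e-05 and -3.44 ± 0.32, padj 3.06e-05). The pore of that channel, Kcnma1, was at 10.2, 18.7 and 10.3 in PEG, 27.7, 2.15 and 22.2 in NC and 32.2 and 42.5 in Unop. Its smooth muscle beta subunit Kcnmb1 was at 80.6, 112 and 92.9 in PEG, 49.1, 42.0 and 55.9 in NC and 59.0 and 70.0 in Unop and higher in PEG-fused than in NC PNAs (0.94 ± 0.22, padj 0.0149). Smooth muscle and pericyte markers were between 26622 and 31527 in PEG-fused, 22444 and 49378 in NC PNAs and 52408 and 61288 in Unop nerves. Of these, 4 of 10 were higher and 2 lower in PEG-fused than in NC PNAs, and their part was not tested.

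The small-conductance channel Kcnn1 fell modestly in both, at 104, 119 and 76.0 in PEG, 87.6, 80.7 and 62.7 in NC and 162 and 175 in Unop (-0.78 ± 0.25, padj 0.0272 and -1.13 ± 0.25, padj 0.00416). Kcnn3 was at 44.5, 72.9 and 44.1 in PEG, 131, 29.0 and 116 in NC and 175 and 128 in Unop without a call. The 2 sodium-activated channels went opposite ways in NC PNAs. Kcnt1 rose in both, at 173, 171 and 151 in PEG, 288, 146 and 264 in NC and 68.7 and 93.8 in Unop (1.03 ± 0.30, padj 0.0178 and 1.46 ± 0.30, padj 0.00279). Kcnt2 was at 49.1, 70.1 and 45.03 in PEG, 21.4, 26.9 and 52.1 in NC and 96.6 and 114 in Unop, and fell in NC PNAs (-1.72 ± 0.39, padj 0.00472). Kcnma1 passed the test in PEG-fused PNAs against Unop nerves without NC 2 (-1.49, padj 0.0106). Kcnmb1 did not pass the test in PEG-fused against NC PNAs without PEG 2 (padj 0.0642). Kcnn1 did not pass the test in PEG-fused PNAs against Unop nerves without any one of PEG 1, PEG 3, Unop 1 and Unop 2 (padj 0.0527 to 0.111). Kcnn3 passed the test in PEG-fused against NC PNAs without NC 2 (-1.22, padj 0.021), in PEG-fused PNAs against Unop nerves without NC 1 (-1.50, padj 0.0471) and in PEG-fused PNAs against Unop nerves without NC 2 (-1.50, padj 0.00301). Kcnt1 did not pass the test in PEG-fused PNAs against Unop nerves without Unop 1 (padj 0.121). Kcnt1 passed the test in PEG-fused against NC PNAs without NC 2 (-0.74, padj 0.0315). Kcnt2 passed the test in PEG-fused against NC PNAs without NC 3 (1.13, padj 0.032), in PEG-fused PNAs against Unop nerves without NC 1 (-0.95, padj 0.0474) and in PEG-fused PNAs against Unop nerves without NC 3 (-0.95, padj 0.0256). With NC 2 as the only NC library, Kcnma1 passed in PEG-fused against NC PNAs (2.11, padj 0.0357) and in NC PNAs against Unop nerves (-3.59, padj 0.00182), as did Kcnn3 in the second (-2.32, padj 0.00398).

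Inward rectifiers pass potassium more easily into the cell and hold the resting potential. Kcnj13 fell most, at 11.1, 18.7 and 12.2 in PEG, 17.0, 10.8 and 0 in NC and 821 and 664 in Unop (-5.66 ± 1.06, padj 0.00202 and -6.96 ± 1.06, padj 0.00052), and the allografts overlapped, with no read in NC 3. Kcnj8, a pore of the ATP-sensitive channel of vessels and pericytes, was at 773, 769 and 712 in PEG, 282, 281 and 433 in NC and 806 and 644 in Unop. PEG-fused PNAs overlapped the Unop nerves (0.06 ± 0.20, padj 0.817), while all NC PNAs were lower (-1.15 ± 0.20, padj 0.00124). Between the allografts the log2 fold change was 1.21 ± 0.18, padj 0.00255. Kcnj2, the classical strong rectifier, rose alike in both groups, at 207, 159.9 and 228 in PEG, 213, 142 and 249.8 in NC and 79.4 and 75.0 in Unop (1.33 ± 0.27, padj 0.00287 and 1.33 ± 0.27, padj 0.00241, and -0.00 ± 0.24 between them).

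Kcnj15 rose in both, at 87.1, 148 and 115 in PEG, 95.6, 60.2 and 55.9 in NC and 27.9 and 20.01 in Unop (2.22 ± 0.34, padj 0.00064 and 1.498 ± 0.34, padj 0.00435). The G-protein-gated Kcnj5 was at 26.9, 4.67 and 8.44 in PEG, 64.3, 85.0 and 104 in NC and 5.37 and 12.5 in Unop, with every NC PNA above the other libraries. It was lower in PEG-fused than in NC PNAs (-2.88 ± 0.59, padj 0.00873) and rose in NC PNAs against Unop nerves (3.18 ± 0.66, padj 0.00287). With NC 2 as the only NC library the first was -2.91 (padj 0.0714). Kcnj9, its G-protein-gated relative, was at 101, 105.6 and 63.8 in PEG, 119.7, 137 and 107 in NC and 38.6 and 90.1 in Unop, with a rise in NC PNAs (1.02 ± 0.38, padj 0.0418). The glial rectifier Kcnj10 was at 17.6, 17.8 and 46.9 in PEG, 107, 30.1 and 27.0 in NC and 51.5 and 103 in Unop. Its partner Kcnj16 was low, at 18.5, 15.9 and 3.75 in PEG, 7.15, 0 and 4.82 in NC and 3.22 and 1.25 in Unop. Kcnj14 was at 133, 110.3 and 162 in PEG, 156, 108.7 and 93.6 in NC and 83.7 and 125 in Unop, and none of these 3 was called. Kcnj9 did not pass the test in NC PNAs against Unop nerves without any one of NC 1, NC 2, NC 3, PEG 1, PEG 2 and Unop 1 (padj 0.0536 to 0.33). Kcnj9 passed the test in PEG-fused PNAs against Unop nerves without Unop 2 (1.17, padj 0.0288). Kcnj10 passed the test in PEG-fused PNAs against Unop nerves without NC 1 (-1.53, padj 0.032) and in PEG-fused PNAs against Unop nerves without PEG 3 (-1.98, padj 0.0436). Kcnj16 reached the count limit only in PEG-fused PNAs. Its log2 fold change there against Unop nerves, without NC 2, was 1.91 and is given with no test.

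Two-pore domain channels carry the background potassium leak, and of the 8 kept 6 fell and 2 rose in PEG-fused PNAs and 5 fell and 2 rose in NC PNAs against Unop nerves. Of all genes tested 28.6% and 32.3% were lower and 29.1% and 32.2% higher in these comparisons. The count limit favoured a fall of Kcnk16 and Kcnk3 and a rise of Kcnk4, so the counts of this family are a description of the genes kept. Their summed counts were (mean ± SD) 7977 ± 1097 in Unop (n = 2), 675 ± 81.8 in PEG (n = 3) and 846 ± 67.5 in NC (n = 3). Kcnk1, a weak inward rectifier of this family, was at 32.4, 15.0 and 27.2 in PEG, 107, 97.9 and 40.5 in NC and 5345 and 7244 in Unop. Its log2 fold change was -7.98 ± 0.46, padj 4.41e-06 in PEG-fused and -6.35 ± 0.46, padj 8.1e-06 in NC PNAs. It was also lower in PEG-fused than in NC PNAs, with no overlap (-1.63 ± 0.41, padj 0.0207). The acid-sensitive Kcnk3 was at 7.42, 6.54 and 8.44 in PEG, 20.6, 4.30 and 6.75 in NC and 668 and 316 in Unop (-5.77 ± 0.59 and -5.58 ± 0.59), and the allografts overlapped. These changes are given with no test, since among the allografts only NC 1 reached the count limit.

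The mechanosensitive Kcnk2 was at 126, 122 and 152 in PEG, 66.1, 67.8 and 54.0 in NC and 666 and 630.4 in Unop. It was lower in both (-2.28 ± 0.19, padj 2.27e-05 and -3.36 ± 0.19, padj 2.34e-06), with PEG-fused above NC PNAs (1.08 ± 0.17, padj 0.0029). Kcnk5, an acid-sensitive channel also known in T cells, was at 93.6, 74.8 and 107.9 in PEG, 223, 243 and 187.1 in NC and 363 and 403 in Unop. It also fell in both (-2.06 ± 0.21, padj 6.56e-05 and -0.82 ± 0.21, padj 0.00786), but with PEG-fused below NC PNAs (-1.24 ± 0.18, padj 0.0024). Kcnk7 was lower in PEG-fused PNAs than in both other groups, at 32.4, 38.3 and 48.8 in PEG, 79.5, 141 and 94.5 in NC and 71.9 and 85.1 in Unop (-1.35 ± 0.27, padj 0.00821 against NC PNAs and -0.97 ± 0.30, padj 0.0235 against Unop nerves). Kcnk16 had 42 reads in Unop nerves, 3 in PEG-fused PNAs and none in NC PNAs, so that Unop nerves were at least 8.35-fold higher than NC PNAs. Against PEG-fused PNAs they were 26.0-fold higher (95% exact interval 8.31 to 131, counting error only).

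Kcnk13, a channel known in microglia, and Kcnk4, a mechanosensitive channel, rose. Kcnk13 was at 374, 322 and 401 in PEG, 370.0, 331 and 380.1 in NC and 66.5 and 43.8 in Unop. It rose in both (2.73 ± 0.20, padj 1.45e-05 and 2.71 ± 0.20, padj 9.83e-06), and the allografts overlapped (0.02 ± 0.18, padj 0.961). Of the 12 macrophage markers 11 were higher in PEG-fused and 12 in NC PNAs than in Unop nerves. Between the allografts 10 of them were lower in PEG-fused PNAs, and their part in the level of Kcnk13 was not tested. Kcnk4 had 2 reads in Unop nerves, and from the pooled reads PEG-fused PNAs were 9.96-fold and NC PNAs 6.45-fold higher. These folds are given with no test, since Kcnk4 reached 10 only in allografts. Kcnk1 did not pass the test in PEG-fused against NC PNAs without any one of NC 1, NC 2 and PEG 2 (padj 0.0538 to 0.0712). Kcnk5 did not pass the test in NC PNAs against Unop nerves without Unop 2 (padj 0.0509). Kcnk7 did not pass the test in PEG-fused PNAs against Unop nerves without any one of PEG 1, PEG 2, Unop 1 and Unop 2 (padj 0.0551 to 0.114). The call of Kcnk4 against Unop nerves was lost in PEG-fused PNAs without Unop 1 and in NC PNAs without NC 1 or without Unop 1.

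Between PEG-fused and NC PNAs, the genes higher with PEG were Scn2a, Scn3b, Kcna6, Kcnd3, Kcnh1, Kcng1, Kcns3, Kcne4, Kcnip1, Kcnip4, Kcnmb1, Kcnj8 and Kcnk2. Of these, 8 were also lower in NC PNAs than in Unop nerves (Kcna6, Kcnd3, Kcnip1, Kcnip4, Kcnj8, Kcnk2, Kcns3 and Scn2a). These 8 were picked with NC PNAs below both other groups, so that order is no separate result. Kcnip1 is listed with no test, since no NC PNA reached the count limit for it. Kcne4, Kcng1, Kcnh1 and Scn3b were highest in PEG-fused PNAs. The 11 genes lower with PEG included Scn4b, Kcna7, Kcnc4, Kcnh2, Kcnab2, Kcnn4, Kcnj5, Kcnk1, Kcnk5 and Kcnk7. Of these, 6 were higher in NC PNAs than in Unop nerves (Kcnab2, Kcnn4, Kcna7, Kcnc4 and Kcnj5 among them) and 3 were lower (Kcnh2, Kcnk1 and Kcnk5). The shares of all genes tested with these joint patterns were not counted. Every PEG-fused PNA was above every NC PNA for 18 genes (24.7%, against 25.6% of all genes tested) and below for 12 (16.4%, against 23.3%).

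**Figure D4:**
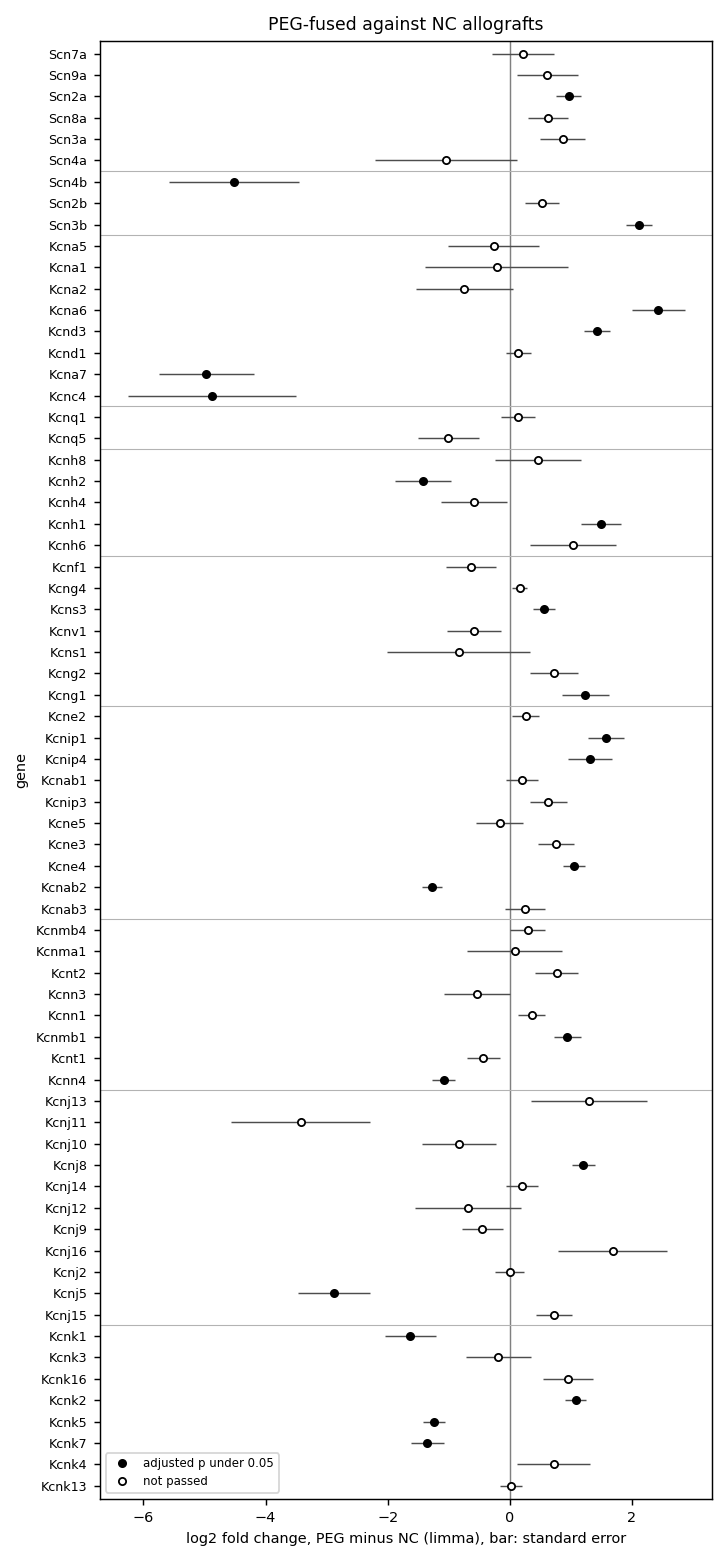
Points are the log2 fold changes of 68 of the 73 genes in PEG-fused against NC PNAs with the SE as bars, and filled points passed padj under 0.05. Kcna6 and Scn3b lay furthest to the right among the genes called, and Kcna7, Kcnc4 and Scn4b furthest to the left, 3 genes that were high in the libraries with muscle genes.

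Several of the genes lower in PEG-fused PNAs are channels of skeletal muscle, and NC 1 and NC 3 held their highest values. Scn4a is the sodium channel of muscle fibres, at 41.7, 146 and 47.8 in PEG, 503, 16.1 and 313 in NC and 51.5 and 22.5 in Unop. NC 1 and NC 3 were the highest libraries and NC 2 the lowest, so no comparison passed (-1.05 ± 1.17, padj 0.535 in PEG-fused against NC PNAs). The beta subunit Scn4b was at 17.6, 4.67 and 8.44 in PEG, 975, 40.9 and 295 in NC and 118 and 32.5 in Unop (-4.52 ± 1.07, padj 0.0156 in PEG-fused against NC PNAs).

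Kcna7, a Shaker channel of muscle and heart, was at 2.78, 1.87 and 6.57 in PEG, 307, 45.2 and 177 in NC and 20.4 and 5.003 in Unop. NC 2 was the lowest NC PNA but still above the other groups. Kcna7 was lower in PEG-fused than in NC PNAs (-4.97 ± 0.77) and rose in NC PNAs against Unop nerves (3.59 ± 0.87). Outside NC PNAs only Unop 1 reached 10, so both are given with no test. The Shaw channel Kcnc4, at 20.4, 0.935 and 2.81 in PEG, 483, 21.5 and 370.4 in NC and 25.8 and 2.501 in Unop, gave -4.88 ± 1.37, padj 0.0309 and 4.04 ± 1.54, padj 0.0461 in the same comparisons. Kcnj11, the ATP-sensitive pore of muscle, was at 24.1, 6.54 and 9.38 in PEG, 567, 16.1 and 249.8 in NC and 132 and 120.1 in Unop. Kcnj12, a classical rectifier of muscle and heart, was at 51.0, 67.3 and 40.3 in PEG, 275, 16.1 and 128 in NC and 59.0 and 47.5 in Unop, and neither of the pair was called. Kcnq5, a Kv7 channel of muscle and neurons, was at 95.5, 159 and 70.4 in PEG, 268, 94.7 and 345 in NC and 77.3 and 53.8 in Unop and rose in NC PNAs (1.66 ± 0.55, padj 0.0272). The muscle fibre list was lower in PEG-fused than in NC PNAs for 5 of 12 genes tested, and its part in these channels was not tested.

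With NC 2 as the only NC library, 6 in place of 11 genes were lower in PEG-fused than in NC PNAs, and 13 in place of 21 were higher in NC PNAs than in Unop nerves. In PEG-fused against NC PNAs, Kcnc4 was then at -2.06 (padj 0.391) and Scn4b at -2.07 (padj 0.149). Kcnj12 turned there from -0.69 ± 0.87 to 1.62 (padj 0.035). In NC PNAs against Unop nerves, Kcnj12 turned from 0.65 ± 0.97 to -1.66 (padj 0.015) and Kcnj11 from 0.09 ± 1.27 to -2.89 (padj 0.0136). In that comparison Kcna7 was at 2.03, Kcnc4 at 1.22 and Kcnq5 at 0.55. Among the other genes, Kcng1, Kcnh1, Kcnh2 and Kcnip4 did not pass between the allografts in this fit (padj 0.136 to 0.436). A test with 1 NC library assumes that it varies like the other groups. Scn4a passed the test in PEG-fused against NC PNAs without NC 2 (-2.56, padj 0.0183) and in NC PNAs against Unop nerves without NC 2 (3.50, padj 0.0021). Scn4b did not pass the test in PEG-fused against NC PNAs without PEG 2 (padj 0.0613). Scn4b passed the test in PEG-fused PNAs against Unop nerves without NC 1 (-2.66, padj 0.0389), in PEG-fused PNAs against Unop nerves without NC 2 (-2.66, padj 0.0162) and in NC PNAs against Unop nerves without NC 2 (3.09, padj 0.012). The call of Kcna7 in NC PNAs against Unop nerves was lost without Unop 2. Kcnc4 did not pass the test in PEG-fused against NC PNAs without any one of NC 1, NC 3, PEG 2 and PEG 3 (padj 0.0799 to 0.108) and in NC PNAs against Unop nerves without any one of NC 1, NC 3, PEG 2, PEG 3 and Unop 2 (padj 0.0501 to 0.292). Kcnj11 passed the test in PEG-fused against NC PNAs without NC 2 (-4.91, padj 0.00168), in PEG-fused PNAs against Unop nerves without NC 1 (-3.34, padj 0.0248) and in PEG-fused PNAs against Unop nerves without NC 2 (-3.34, padj 0.00127). Kcnj12 passed the test in PEG-fused against NC PNAs without NC 2 (-1.84, padj 0.0117) and in NC PNAs against Unop nerves without NC 2 (1.81, padj 0.00582). Kcnq5 did not pass the test in NC PNAs against Unop nerves without any one of NC 1, NC 3, Unop 1 and Unop 2 (padj 0.0649 to 0.15). Kcnq5 passed the test in PEG-fused against NC PNAs without NC 2 (-1.56, padj 0.0177).

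**Figure D5:**
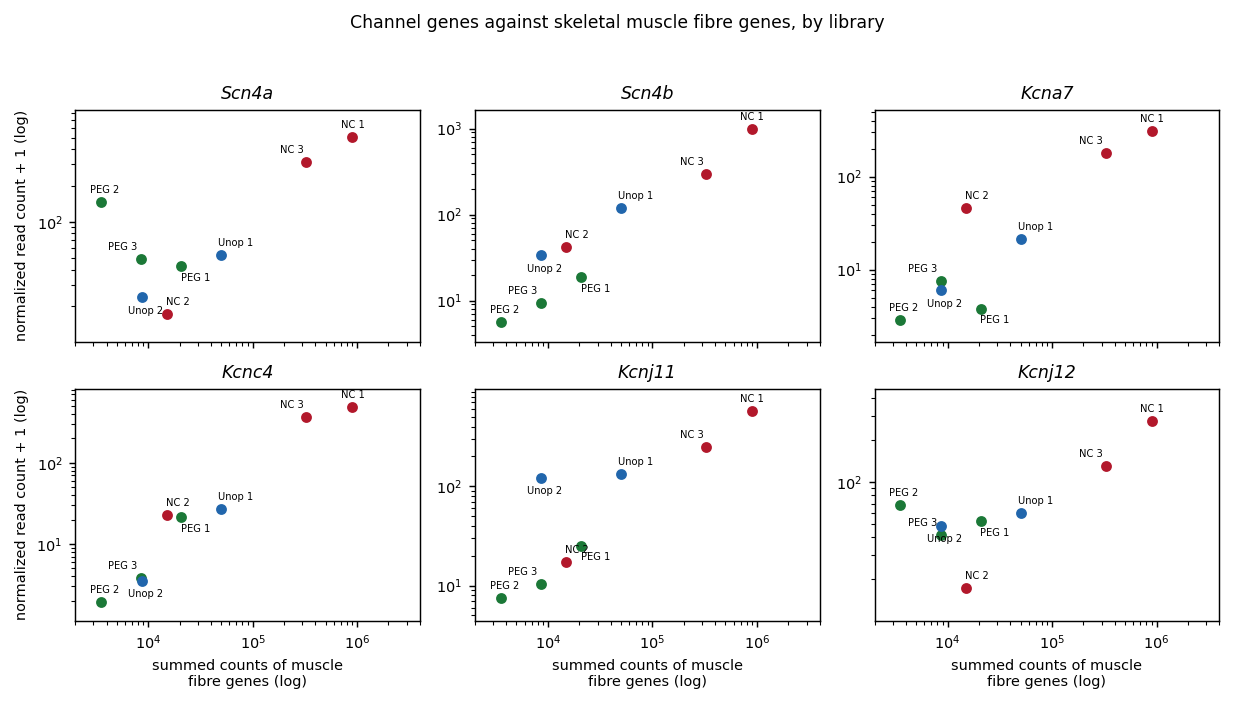
Each panel gives, for 1 channel gene, normalized read count + 1 against the summed normalized read counts of 12 skeletal muscle fibre genes in the 8 libraries, both on log axes. NC 1 and NC 3, with sums of 904456 and 326819, held the 2 highest values in all 6 panels.

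The proteins that hold sodium and potassium channels at the node and juxtaparanode were measured as a list of 22 genes tested. Of these, 13 fell and 3 rose in PEG-fused PNAs (median log2 fold change -1.09) and 15 fell and 2 rose in NC PNAs (-1.57) against Unop nerves. Over all genes tested 28.6% fell and 29.1% rose in the former and 32.3% and 32.2% in the latter. Between the allografts, 7 were higher and 1 lower in PEG-fused PNAs (median 0.67), against 15.0% and 13.9% of all genes tested. Nfasc, which gathers nodal proteins on axon and glia, was at 263, 247 and 231 in PEG, 89.4, 58.1 and 39.6 in NC and 4750.0 and 6353 in Unop. It fell in both (-4.47 ± 0.30, padj 8.65e-06 and -6.52 ± 0.30, padj 1.16e-06) and was higher in PEG-fused than in NC PNAs (2.04 ± 0.27, padj 0.00162). Gldn, which Schwann cells send to the node, was at 613, 464 and 1306 in PEG, 1128, 264 and 261 in NC and 5469 and 7070.4 in Unop (-3.11 ± 0.66, padj 0.00373 and -3.86 ± 0.66, padj 0.000979). The adhesion protein Nrcam was at 3978, 4103 and 4131 in PEG, 837, 864 and 1017 in NC and 2044 and 3168 in Unop, above NC PNAs in every PEG-fused PNA (2.17 ± 0.16, padj 0.000343), and Cntn1 rose in both (2.18 ± 0.45, padj 0.00344 and 3.14 ± 0.45, padj 0.00038). Fgf13, which binds sodium channel tails, was the 1 gene lower in PEG-fused than in NC PNAs (-2.94 ± 0.52, padj 0.0051), at 36.1, 22.4 and 15.0 in PEG, 329.7, 81.8 and 229 in NC and 66.5 and 46.3 in Unop, with its highest values in NC 1 and NC 3.

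Of 13 genes of the sodium-potassium pump, which restores the gradients that the channels spend, 9 fell and 3 rose in PEG-fused and 9 fell and 4 rose in NC PNAs against Unop nerves, with medians of -1.70 and -1.72. Over all genes tested 28.6% fell and 29.1% rose in the former and 32.3% and 32.2% in the latter, with medians of 0.01 and 0.02. Fxyd6, Fxyd7 and Fxyd3, small regulators of the pump, were among the lower genes. Fxyd6 was at 4261, 5347 and 5164 in PEG, 2446, 1828 and 1102 in NC and 56343 and 58343 in Unop. Fxyd7 was at 89.9, 72.0 and 87.2 in PEG, 119.7, 72.1 and 83.9 in NC and 3806 and 4769 in Unop. Fxyd3 was at 7.42, 3.74 and 7.50 in PEG, 11.6, 6.45 and 1.93 in NC and 406 and 326 in Unop, and in each the Unop nerves were far above all allografts. The pump subunit Atp1b1 rose (3.78 ± 0.20, padj 3.25e-06 and 3.76 ± 0.20, padj 2.14e-06). Between the allografts 1 gene was higher and 1 lower, against 15.0% and 13.9% of all genes tested. Of 21 calcium and HCN channel genes tested, 6 fell in each allograft group, where 28.6% and 32.3% of all genes tested fell, and 4 rose in PEG-fused and 3 in NC PNAs, with medians of -0.19 and -0.16. The shares that rose over all genes tested were 29.1% and 32.2%. Between the allografts 4 were higher and 2 lower in PEG-fused PNAs, against 15.0% and 13.9% of all genes tested.

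The 31 matching symbols below the count limit included sodium channels of sensory neurons. Scn10a reached at most 7.72, in NC 3, Scn11a at most 3.22, in Unop 1, and Scn1a at most 9.38, in PEG 3. Kcna4 was read in all 3 PEG-fused PNAs (2.78, 3.74 and 3.75) and had no read in the other 5 libraries. Kcnk12 was at 12.05, 2.80 and 9.38 in PEG-fused PNAs and had no read in Unop nerves. Kcnk10 reached at most 8.04, in NC 1. No read fell on 4 of the 31 (Kcnh5, Kcns2, Kcnk18 and Kcnk6).

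Some of the genes lie side by side. In the RefSeq order of GRCr8, 9 pairs of the 73 genes had no other protein-coding gene between them. Kcna5, Kcna1 and Kcna6 form such a run, with both Unop nerves above every allograft for all 3. For Kcna5 and Kcna1 this is given with no test, and only Kcna6 passed between the allografts. Scn9a and Scn7a are neighbours and both were lower in both groups. Kcnk16 and Kcnk5 are neighbours with both Unop nerves above every allograft. Kcnip1 and Kcnmb1 are neighbours with every PEG-fused PNA above every NC PNA. For Kcnk16 and Kcnip1 this is given with no test. The share of neighbours that move alike over all genes was not counted. In the other pairs (Scn3a and Scn2a, Scn2b and Scn4b, Kcnj16 and Kcnj2, and Kcnj9 and Kcnj10), 1 gene passed a test that its neighbour did not.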

How the data were processed

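RNA-seq libraries (TruSeq Stranded mRNA, poly-A selected) of 8 nerves were grouped by their labels. Per the labels and the study's methods, the authors checked reads with FastQC, aligned reads to Rnor_6.0 by TopHat2, tallied reads on genes by HTSeq and scaled the counts by DESeq2 size factors. The signal values deposited by the authors are these normalized read counts. The strand setting of the counting is not given in the sources used here. The authors' fold changes, Wald statistics and p-values, also deposited, were not used.

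The members and lists were chosen with earlier results of these data known. The naming rule took the 10 largest called changes each way in each comparison, the most abundant gene of each family, a list of nerve, immune and muscle channels and the genes at the count limit. The other members were named as well, apart from 5 of the 73 that are not reported here, and the partners named were chosen after their values were seen. The test was planned on counts. As values were normalized, limma 3.58.1 (trend, R 4.3.3) was fitted to log2(value + 1) of 16478 genes with at least 10 in at least 2 libraries, with a group-means model over the 8 libraries and 3.27 prior degrees of freedom, and checked on simulated data. The pseudocount understates changes of low genes. Whole reads were recovered for 100% of values within 0.001 (size factors 0.800 to 1.12), and edgeR 4.0.16 and DESeq2 1.42.0 were run on them. Libraries were made from 0.13 to 4 µg of RNA (RIN 7.1 to 8.2). Each library is 1 animal. Where a group had no read of a gene, fold changes were bounded with 3 counts as the floor in each library. Fold changes from the pooled reads of a group carry no interval.

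Promoters are RefSeq windows on GRCr8 (Python 3.11.15, pandas 2.3.3, NumPy 2.4.6, SciPy 1.17.1, matplotlib 3.10.9), and 21 genes had none. Alternatives were the count tests on recovered reads, rescaling by TMM factors, a pseudocount of 8, no filter, a filter of 50 counts, a robust fit, only the 2 groups compared, a replicate block, each library left out in turn and, chosen after seeing the muscle gene sums, NC 2 as the only NC library.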

Additional observations from a re-analysis of the deposited data

How the results depend on the processing

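Under every alternative run, 8 of 13 genes higher and 5 of 11 lower in PEG-fused than in NC PNAs stayed called, as did 10 of 16 higher and 19 of 25 lower in PEG-fused PNAs and 11 of 21 higher and 24 of 30 lower in NC PNAs against Unop nerves. Leaving out 1 library at a time gave 9 to 14 genes higher and 6 to 17 lower in PEG-fused than in NC PNAs (6 without PEG 2, 7 without NC 1 and 17 without NC 2, against 11), 13 to 18 higher and 21 to 30 lower in PEG-fused PNAs and 13 to 22 higher and 26 to 30 lower in NC PNAs against Unop nerves (13 higher without Unop 2, against 21). With NC 2 as the only NC library, 6 genes were lower in PEG-fused than in NC PNAs and 13 higher in NC PNAs than in Unop nerves. Under that setting 3 values reversed: Kcnj12 was at 1.62 in PEG-fused against NC PNAs and -1.66 in NC PNAs against Unop nerves, and Kcnj11 at -2.89 in the latter. The summed inward rectifier count in PEG-fused PNAs was 1426, and 1373 without Kcnj12, by construction. In PEG-fused against NC PNAs, a pseudocount of 8 gave 2 node partners and 2 pump genes lower, against 1 each, and rescaling by TMM factors gave 1 calcium or HCN channel gene lower, against 2. The causes were not tested, apart from the number of libraries fitted.

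Same-numbered libraries were not taken as paired, since the correlations of their deviations were 0.108, 0.109 and -0.05 for PEG-fused and NC PNAs 1, 2 and 3. With Unop nerves, which give only 2 pairs, they were 0.154 and 0.136 for PEG-fused and 0.152 and 0.157 for NC PNAs. With the replicate number as a block, 12 genes were higher and 12 lower in PEG-fused than in NC PNAs, 16 higher and 27 lower in PEG-fused PNAs and 19 higher and 29 lower in NC PNAs against Unop nerves.

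Depth limits the 15 genes that reached the count limit in only some groups, and 2 Unop nerves limit every comparison with them.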
